A study of Homo sapiens with 18 samples.

Results

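A pair of TADA2B knockout lines of A375 melanoma cells, made with different guide RNAs, was compared: 3 libraries of the guide 2 line and 3 of the guide 1 line, 6 of the 18 libraries sequenced, chosen by their sample titles. Both lines carry the genotype label TADA2B knockout and no added SOX10. The other 12 libraries, 3 per group, are both lines with SOX10 overexpressed, and control cells with and without SOX10 overexpression. Control cells carry a guide against GFP and are labelled WT. The same genes were read in these 12 libraries, which also entered the filter, the scaling and the estimate of spread behind the p-values. A375 is an established melanoma cell line, obtained from ATCC and cultured in serum-supplemented DMEM. The labels give neither the guide sequences nor whether each line is 1 clone or a pool, nor whether the 3 libraries of a line came from separate cultures, so p-values measure only the spread between these libraries, which may be technical. A difference between the lines can come from the guide or from the line that carries it, and these cannot be told apart.

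TADA2B is an adaptor subunit of SAGA, a coactivator complex that acetylates histones at promoters through GCN5 or PCAF and removes ubiquitin from histone H2B. SOX10 is the transcription factor that specifies neural crest, Schwann and melanocyte cells, and in melanoma it maintains the melanocytic program. Loss of SOX10 in melanoma cells is known to go with a more mesenchymal, drug-tolerant state.

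The libraries held 65.0 to 79.9 M counts in guide 2 cells and 69.6 to 77.2 M in guide 1 cells. Guide 2 replicate 2 stood apart from the other 2 libraries of its line, with a chi-square per degree of freedom of 11.8 and 10.4 over genes against 4.6 between those 2, and 3.54 to 4.79 among guide 1 libraries. Without it 543 genes were higher and 1218 lower in guide 2 cells, close to the counts with all libraries given below. Mitochondrially encoded transcripts took 0.996% to 1.19% of counts in guide 2 cells and 1.10% to 1.16% in guide 1 cells. Of 11 markers of melanoma and melanocytes, SOX10, MITF, S100B, PAX3 and TFAP2A reached a mean of 1 CPM (counts per 1 M counts of the scaled library) in both lines, while TYR, the tyrosinase of pigment synthesis, had 1 count in all guide 2 libraries together and 1 in all guide 1 libraries.

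SOX10 differed between the lines. It stood at 46.1, 39.9 and 44.1 CPM in the 3 guide 2 libraries, against 87.0, 82.6 and 81.2 CPM in the 3 guide 1 libraries. Every guide 2 library lay below every guide 1 library. SOX10 (ENSG00000100146; hg38 chromosome 22, 37970686 to 37987422) was 1.92-fold lower in guide 2 cells (log2 difference −0.94, standard error (SE) 0.040, edgeR adjusted p = 3.68e-18). In bulk libraries like these, fewer cells with the transcript and less of it per cell cannot be told apart. Control cells averaged 354 CPM, above every library of both lines. TADA2B itself (ENSG00000173011; chromosome 4, 7041899 to 7057952) was at 28.6, 27.5 and 30.2 CPM in guide 2 cells and at 26.1, 25.6 and 26.4 CPM in guide 1 cells. The groups did not overlap, but the difference was 1.11-fold and its adjusted p of 0.0438 did not hold without guide 1 replicate 1, 2 or 3 or without guide 2 replicate 1 or 3 (0.0679 to 0.268), or in a fit of these 6 libraries alone (0.0863). A guide need not lower the transcript it cuts, so these levels do not measure the protein left. MITF, the master regulator of the melanocyte lineage and a known SOX10 target, ran the other way at 90.0, 90.8 and 95.4 CPM in guide 2 cells and 84.2, 82.4 and 86.4 CPM in guide 1 cells (log2 difference 0.13, SE 0.036, adjusted p = 0.016). The MITF call was lost without guide 1 replicate 1 (adjusted p = 0.0565), guide 1 replicate 2 (0.109) or guide 2 replicate 3 (0.146). SOX9, a related factor that melanoma cells without SOX10 can express, was at 21.8, 20.1 and 18.2 CPM in guide 2 cells and 19.2, 21 and 19.1 CPM in guide 1 cells, and these ranges overlapped (adjusted p = 0.953).

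**Figure D1:**
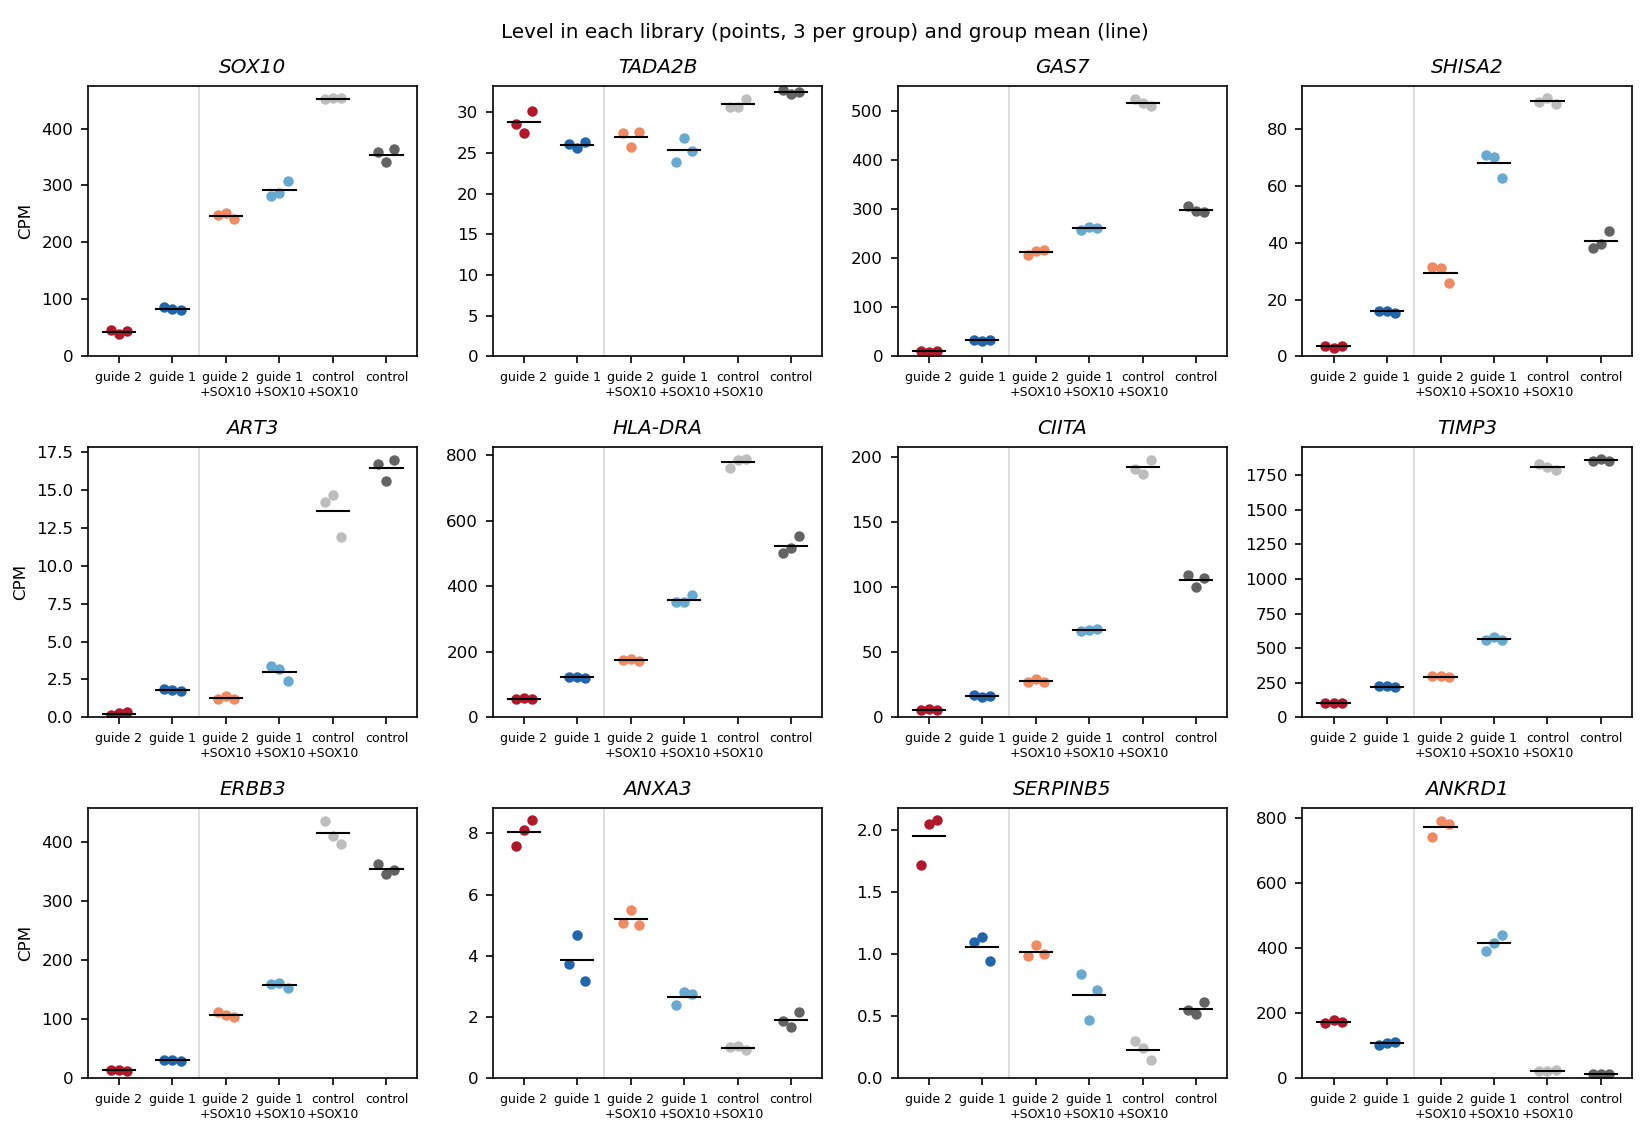
CPM (vertical axes, linear, starting at 0) of 12 genes in all 18 libraries, by group; each point is 1 library and the line is the group mean. SOX10 averages 43.4 CPM in guide 2 cells and 83.6 CPM in guide 1 cells, and SHISA2, GAS7 and the class II genes follow the same order, while ANXA3, SERPINB5 and ANKRD1 are higher in guide 2 cells.

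Across the transcriptome the lines were close, and where they differed guide 2 cells were mostly lower. Of 21060 genes tested, 1841 passed an edgeR adjusted p of 0.05 (8.74%), 559 higher (2.65%) and 1282 lower (6.09%) in guide 2 cells. At least 2-fold, 123 genes were lower (0.584%) and 9 were higher (0.0427%). The median log2 difference of all genes was −0.003. Scaling the libraries draws this median towards 0, so it does not measure how close the lines were. The libraries of the lines did not overlap for 1247 of the 1282 lower genes and 533 of the 559 higher ones, against 22.5% of all genes tested. The calls rest on the same libraries, so this adds no support to them. Scaling by library size alone, in place of TMM factors, gave 815 higher and 1116 lower, so that the share of higher genes among those called was 42.2% instead of 30.4%, and 1675 genes were called in both with 1 direction. A fit of these 6 libraries alone, with no block, called 481 genes higher and 978 lower. Same-numbered libraries of the lines deviated together, and a fit of these 6 libraries with the replicate number as a block called 874 genes higher and 1386 lower. That fit moved the higher count by over 1.5 times, and 1749 genes were called in both. Leaving out guide 1 replicate 1 gave 336 higher genes, so the size of the higher set is less certain than that of the lower set. By class of gene, 1200 of 14644 protein-coding genes were lower and 525 higher, and 57 of 3427 long noncoding genes were lower and 22 higher. By chromosome, medians ran from −0.017 on chromosome 11 to 0.026 on chromosome 19 over 1 to 22 and X, and the share called from 5.72% on chromosome 16 to 11.4% on chromosome 4. Chromosome 19, with 47 genes higher and 33 lower, was the only one of these with more higher than lower calls. Within 1 Mb of TADA2B, 1 of 17 neighbours tested changed (AFAP1, log2 difference −0.34).

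**Figure D2:**
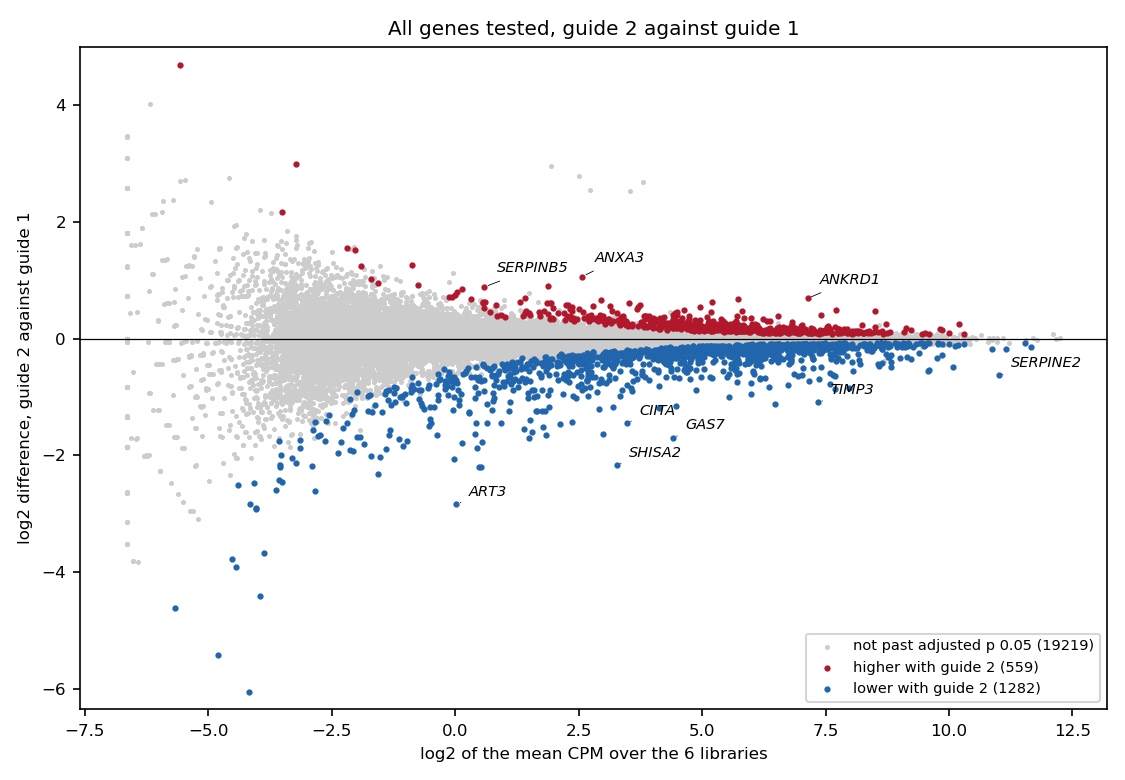
Log2 difference of guide 2 against guide 1 (vertical axis) against the log2 of the mean CPM over the 6 libraries (horizontal axis, values under 0.01 CPM drawn at 0.01), 1 point per gene tested. The 1282 lower genes include ART3 at −2.84, SHISA2 at −2.17 and GAS7 at −1.70, while ANXA3 at 1.06 is among the highest of the 559 higher genes above 1 CPM.

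The 10 largest falls among protein-coding genes with a mean of at least 1 CPM in a line began with ART3. ART3, an ADP-ribosyltransferase family member, had 0.132, 0.28 and 0.337 CPM in guide 2 cells, against 1.85, 1.80 and 1.71 CPM in guide 1 cells, 7.16-fold lower (log2 difference −2.84, SE 0.205, adjusted p = 1.08e-13). SHISA2, which holds back WNT and FGF receptor maturation, had 3.63, 3.08 and 3.78 CPM against 15.9, 16.1 and 15.4 CPM in guide 1 cells (log2 difference −2.17, SE 0.088, adjusted p = 1.07e-15). GAS7, an actin-binding adaptor expressed in neurons, had 10.4, 9.72 and 9.85 CPM in guide 2 cells and 32.8, 32.2 and 32.3 CPM in guide 1 cells (log2 difference −1.70, SE 0.036, adjusted p = 1.2e-31). Only genes whose libraries did not overlap between the lines could enter these 10, so their separation is no added result. HLA-DOA, a class II chaperone described below, fell by 2.20 on the log2 scale. MUC5B, a gel-forming mucin, had 0.503, 0.531 and 0.469 CPM in guide 2 cells and 2.32, 2.20 and 2.37 CPM in guide 1 cells (log2 difference −2.20). CDKN1C, the cyclin-dependent kinase inhibitor p57, fell by 2.06 and TCN1, a vitamin B12 carrier, by 1.71 on that scale. KRT14, a basal keratin, and GJB1, a connexin of Schwann cells, fell by 1.66 and 1.64, and MGAM2, a glucosidase relative, by 1.65. These 10 genes kept their call in all 15 alternatives tried.

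The 10 largest rises, chosen the same way, were smaller. ANXA3, a calcium-dependent membrane-binding annexin, had 7.58, 8.10 and 8.45 CPM in guide 2 cells, against 3.72, 4.68 and 3.17 CPM in guide 1 cells (log2 difference 1.06, SE 0.110, adjusted p = 7.76e-10). MFAP5, a microfibril glycoprotein of fibroblasts, rose by 0.90, with 4.86, 4.99 and 4.52 CPM in guide 2 cells against 2.30, 3.02 and 2.40 CPM in guide 1 cells. The serpins SERPINB5 (maspin, an epithelial protein) and SERPINB2 (an inhibitor of urokinase) rose by 0.88 and 0.85 on the log2 scale. ANKRD1, a muscle and YAP-responsive ankyrin-repeat protein, was the most abundant of the 10, at 171, 178 and 172 CPM in guide 2 cells and 102, 109 and 112 CPM in guide 1 cells (log2 difference 0.69, SE 0.053, adjusted p = 5.5e-08). POU2F3, the tuft-cell transcription factor, also rose by 0.69. The other 4 of the 10 lay between 0.513 and 1.56 CPM and lost their call when single libraries were left out. These were KCND3, a potassium channel (adjusted p = 0.0061; 0.0596 without guide 1 replicate 1 and 0.0722 without guide 2 replicate 1), and TGM4, a transglutaminase (0.0145; 0.159 without guide 1 replicate 2 and 0.0778 without guide 2 replicate 2). KIF17, a kinesin, was lost without guide 1 replicate 1 or 3 or guide 2 replicate 1 or 3 (adjusted p = 0.0777 to 0.139), and MAP3K8, a MAP kinase kinase kinase, without guide 1 replicate 1 or 2 or any guide 2 library (0.0658 to 0.239), and by DESeq2 (0.0519) or without the filter (0.0504).

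Among long noncoding genes LINC02119 fell by 1.78, PART1 by 1.79 and the unnamed intergenic gene ENSG00000227297 by 1.88 on the log2 scale, with 1.57 to 2.40 CPM in guide 1 libraries. SFTA1P rose by 0.55 to 15.1, 16.5 and 14.9 CPM in guide 2 cells, against 10.0, 11.1 and 10.7 CPM in guide 1 cells. ITGB2-AS1, which runs antisense to ITGB2, rose by 0.63, and its call was lost without guide 1 replicate 1 (adjusted p = 0.0518) or guide 2 replicate 1 (0.0679). Whether counting used the strand is not given in the sources used here, so reads of an antisense gene and its partner cannot be told apart.

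The MHC class II genes formed the gene list with the lowest median. Class II molecules present peptides from endosomes to CD4 T cells. An α and a β chain (HLA-DR, -DP, -DQ) assemble on the invariant chain CD74, HLA-DM exchanges peptides and HLA-DO restrains HLA-DM. All are switched on by CIITA, a coactivator that binds no DNA itself and docks on the factors RFX, CREB and NF-Y at a conserved promoter module of S, X, X2 and Y boxes. Melanoma cells often express class II, and CIITA is its limiting step.

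Promoters of 5 members are shown from the RefSeq promoter table (GRCh38.p14), the 250 bases before each gene's start on the coding strand, because CIITA acts through this region and all 5 genes fell, by 1.80-fold (HLA-DMA) to 4.61-fold (HLA-DOA). The capitals mark every match, on either strand, to 3 short motifs typed in after the sequences had been read: AGCAAC and CTGATGAT, which resemble parts of the X and X2 boxes, and ATTGG, the core letters of an NF-Y site, whose reverse complement reads CCAAT.
HLA-DRB1 (chr6:32589849-32590098, minus strand): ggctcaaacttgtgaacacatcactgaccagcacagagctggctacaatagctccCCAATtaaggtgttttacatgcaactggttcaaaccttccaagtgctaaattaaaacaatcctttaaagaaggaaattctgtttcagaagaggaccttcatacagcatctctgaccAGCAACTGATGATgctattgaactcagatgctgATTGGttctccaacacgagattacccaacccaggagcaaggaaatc
HLA-DRB5 (chr6:32530288-32530537, minus strand): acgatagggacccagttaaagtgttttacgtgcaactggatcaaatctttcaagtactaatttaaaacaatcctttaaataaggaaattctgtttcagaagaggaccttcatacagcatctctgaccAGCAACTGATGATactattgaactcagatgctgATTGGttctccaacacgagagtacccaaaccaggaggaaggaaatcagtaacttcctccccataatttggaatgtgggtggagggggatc
HLA-DOA (chr6:33009592-33009841, minus strand): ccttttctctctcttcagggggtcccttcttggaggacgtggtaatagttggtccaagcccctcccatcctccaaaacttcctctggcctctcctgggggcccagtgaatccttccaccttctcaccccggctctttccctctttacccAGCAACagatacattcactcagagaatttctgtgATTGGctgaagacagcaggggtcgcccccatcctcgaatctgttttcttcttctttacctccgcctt
HLA-DMA (chr6:32953098-32953347, minus strand): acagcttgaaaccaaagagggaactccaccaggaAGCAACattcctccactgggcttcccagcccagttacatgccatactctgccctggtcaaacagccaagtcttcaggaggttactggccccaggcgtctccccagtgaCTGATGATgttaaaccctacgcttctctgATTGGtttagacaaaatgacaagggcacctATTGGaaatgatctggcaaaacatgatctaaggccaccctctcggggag
CD74 (chr5:150412911-150413160, minus strand): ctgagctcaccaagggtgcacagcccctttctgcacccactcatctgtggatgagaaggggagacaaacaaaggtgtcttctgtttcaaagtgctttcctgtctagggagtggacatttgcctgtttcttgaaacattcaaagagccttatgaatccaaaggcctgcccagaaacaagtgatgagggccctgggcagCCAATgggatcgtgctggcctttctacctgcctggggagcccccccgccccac

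In HLA-DRB1 and HLA-DRB5 the first 2 motifs overlap by 1 base and 27 bases separate AGCAAC from ATTGG; in HLA-DOA the spacing is 28 bases. In HLA-DMA the 3 motifs occur, but AGCAAC lies 131 bases before the first ATTGG. CTGATGAT lies between them, nearer to that ATTGG, and another ATTGG follows. Of 35116 promoters in the table, 10.3% hold AGCAAC, 0.587% hold CTGATGAT and 32.0% hold ATTGG. Among the 15 class II list members with an entry, 6, 5 and 12 hold them in that order of motif, and among the 11 that were lower in guide 2 cells, 6, 4 and 10 do. Because the motifs were chosen after class II sequences had been read, these counts are no test against the shares of all promoters. The matches are letters in a window and say nothing of binding or of the fall.

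Of 18 class II members tested, 13 were lower and 0 higher in guide 2 cells, with a median log2 difference of −0.85. CIITA had 6.00, 6.45 and 5.52 CPM in guide 2 cells, against 16.8, 15.3 and 16.6 CPM in guide 1 cells. It was thus 2.73-fold lower (log2 difference −1.45, SE 0.055, adjusted p = 4.45e-23), with no library of a line near the other line. HLA-DRA, the DR α chain, had 54.8, 58.2 and 54.8 CPM in guide 2 cells, against 122, 122 and 121 CPM in guide 1 cells (2.17-fold lower, SE of the log2 difference 0.033, adjusted p = 6.34e-27). CD74 had 149.5, 139.7 and 149 CPM in guide 2 cells and 269, 277 and 250.3 CPM in guide 1 cells. The chaperone genes HLA-DMA, HLA-DMB and HLA-DOA fell by 0.85, 1.00 and 2.20 on the log2 scale, and HLA-DQA1, HLA-DQB1 and HLA-DPA1 by 1.45, 0.78 and 0.68. HLA-DRB1 and HLA-DRB5, at 6.78 to 6.88 and 3.24 to 3.62 CPM in guide 2 cells against 12.5 to 14.7 and 6.14 to 7.31 CPM in guide 1 cells, are near-identical copies, and reads may be split between them. HLA-DPB1 and the promoter-binding factor RFX5 were lower by little, 0.17 and 0.11 on the log2 scale. The other subunits of that factor did not pass: RFXAP and RFXANK differed by 0.08 and 0.05. HLA-DOB, CTSS (a lysosomal protease that trims the invariant chain) and IFI30 (a lysosomal thiol reductase) did not pass either.

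**Figure D3:**
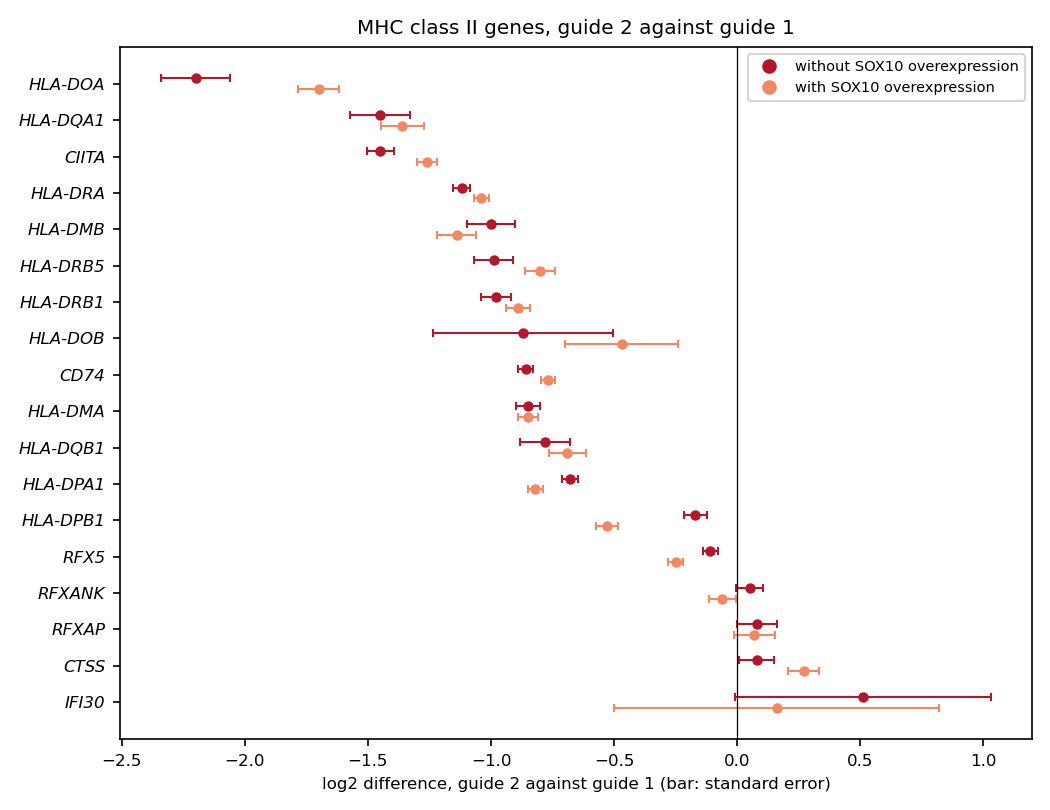
Log2 difference of guide 2 against guide 1 (horizontal axis) with its SE for the 18 MHC class II list members, without and with SOX10 overexpression. CIITA stands at −1.45 and −1.26, HLA-DRA at −1.12 and −1.04, while RFXAP and RFXANK lie at 0.08 and 0.05 without SOX10.

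Of 19 MHC class I and peptide-loading genes, 5 were lower and 0 higher (median −0.10). HLA-B, a class I heavy chain, had 45.0, 44.7 and 44.6 CPM in guide 2 cells and 59.7, 58.0 and 58.5 CPM in guide 1 cells. HLA-E and HLA-C fell by 0.27 and 0.21 on the log2 scale, and the shared light chain B2M by 0.14. Of 41 interferon-stimulated genes, 4 were higher and 0 lower. That is 9.76% of the list, against 8.74% of all genes called in either direction and 2.65% called higher. Among the 4 were GBP1, a guanylate-binding protein, at 27.9, 28.3 and 25.5 CPM in guide 2 cells against 20.1, 20.9 and 22.7 CPM in guide 1 cells, and IFIT5 (log2 difference 0.16). That count of 4 turned on single libraries: it was 13 without guide 2 replicate 3, 2 without guide 1 replicate 1, guide 1 replicate 2 or guide 2 replicate 1, and 10 in the fit of the 6 libraries with the replicate block.

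Of 28 genes of the SOX10, neural crest and Schwann lineage, 15 were lower and 0 higher, with a median log2 difference of −0.31. SOX10 counts among the 15. ERBB3, the neuregulin receptor that neural crest and melanoma cells rely on, had 14.3, 13.9 and 13.2 CPM in guide 2 cells, against 31.3, 31.4 and 29.3 CPM in guide 1 cells (log2 difference −1.15, SE 0.042, adjusted p = 5e-23). CDH19, a cadherin of Schwann cell precursors, had 5.29, 5.94 and 5.71 CPM against 11.9, 13.2 and 13.0 CPM in guide 1 cells (log2 difference −1.18, SE 0.055, adjusted p = 3.44e-20). The groups were apart in both genes. NGFR, the low-affinity neurotrophin receptor, fell by 0.75 and S100B, a glial calcium-binding protein, by 1.09 on the log2 scale. POU3F2 (BRN2), SOX5 and L1CAM fell by 0.51, 0.61 and 0.37. Of 17 pigmentation genes, 4 were lower and 1, MITF, higher (median 0.12). The lowest p there was that of GPNMB, a melanosome glycoprotein, which fell by 0.13. The 4 became 1 without guide 1 replicate 2 and 2 without guide 1 replicate 3 or guide 2 replicate 1. The count of 1 higher became 0 without guide 1 replicate 1 or guide 2 replicate 3, and 2 in the 6-library fit with the replicate block.

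Of 28 output genes of the MAPK pathway, which the BRAF mutation of A375 keeps active, 14 fell and 2 rose (median −0.16). DUSP4, an ERK phosphatase, had 219.7, 211 and 215 CPM in guide 2 cells and 315, 319 and 314 CPM in guide 1 cells (log2 difference −0.55, SE 0.029, adjusted p = 1.01e-18). SPRY2, a receptor-signalling inhibitor, and DUSP6, the cytosolic ERK phosphatase, fell by 0.42 and 0.31. CCND1, the G1 cyclin, had 324, 322 and 323 CPM in guide 2 cells, against 444, 444 and 452 CPM in guide 1 cells. The ETS factors ETV5 and ETV1 and the AP-1 subunit FOSL1 fell by 0.27, 0.26 and 0.27. Against this direction, MYC rose by 0.28 and DUSP5, the nuclear ERK phosphatase, by 0.23. Of 30 receptor tyrosine kinases, 6 were lower and 2 higher (median −0.06). The 2 higher became 1 without guide 1 replicate 1 or 2, and 0 without guide 2 replicate 3. Beside ERBB3 the lower ones included FLT1, a VEGF receptor, at 2.48, 2.91 and 1.66 CPM in guide 2 cells and 5.54, 6.76 and 6.88 CPM in guide 1 cells, and DDR1, a collagen receptor (log2 difference −0.53). AXL, linked to drug tolerance, was lower by 0.12.

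Of 39 collagens and matrix proteins, 17 fell and 1 rose (median −0.13), the 1 becoming 0 without guide 1 replicate 3. TIMP3, the matrix-bound inhibitor of metalloproteases, had the lowest p of its list, with 107, 103 and 102 CPM in guide 2 cells against 225, 224 and 217 CPM in guide 1 cells (2.14-fold lower, SE of the log2 difference 0.025, adjusted p = 4.89e-31). SPARC had 633, 632 and 627 CPM in guide 2 cells, against 921, 928 and 893 CPM in guide 1 cells. TNC (tenascin C) and FN1 (fibronectin) fell by 0.43 and 0.36. Of 29 integrins and laminins, 12 fell and 2 rose (median −0.13), the 2 becoming 1 without guide 1 replicate 1 or 2 or guide 2 replicate 1. ITGB8, the integrin chain that activates latent TGF-β, had 30.5, 31.6 and 30.4 CPM in guide 2 cells and 61.3, 62.1 and 62.5 CPM in guide 1 cells (2.01-fold lower). ITGA6 and the laminin chains LAMA4 and LAMC1 fell by 0.43, 0.51 and 0.31. LAMA1 rose by 0.34. Of 34 cadherins and neural adhesion genes, 16 fell and 0 rose (median −0.20), among them CDH19, PCDH1 (−0.76), CADM4 (−0.47) and CDH2, N-cadherin (−0.17).

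Matrix proteases were split, with 13 of 35 lower and 5 higher (median −0.12). Membrane-anchored ADAM19 had 40.6, 38.8 and 37.7 CPM in guide 2 cells, against 67.6, 65.9 and 63.1 CPM in guide 1 cells. MMP16 and MMP14, membrane-type metalloproteases, and PLAT, the tissue plasminogen activator, fell by 0.57, 0.41 and 0.66. ADAMTS6 went up, to 64.8, 68.0 and 64.0 CPM in guide 2 cells against 39.5, 42.6 and 40.8 CPM in guide 1 cells (log2 difference 0.68, SE 0.044, adjusted p = 1.05e-15). PLAU, urokinase, rose by 0.43. The 5 rises became 3 without guide 1 replicate 1, guide 1 replicate 2 or guide 2 replicate 3.

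The list for the undifferentiated, AXL-high melanoma state was split. Its 30 genes gave 13 lower and 5 higher (median −0.08); the 5 became 3 without guide 1 replicate 1 or guide 2 replicate 1 or 3. SERPINE2, a thrombin inhibitor, fell to 1614, 1647 and 1571 CPM in guide 2 cells, against 2546, 2503 and 2437 CPM in guide 1 cells. WNT5A fell by 0.51 and VIM (vimentin) by 0.33. CCN1 and CCN2, which both this list and the next one hold, rose by 0.48 each. YAP and TEAD targets had the highest median of the 32 lists: 9 of 24 rose and 6 fell (median 0.15). CCN1, a secreted matricellular protein, had 413, 412 and 436 CPM in guide 2 cells and 291, 300.5 and 314 CPM in guide 1 cells. CCN2 had 245, 238 and 253 CPM in guide 2 cells, against 169, 176 and 181 CPM in guide 1 cells. F3, tissue factor, and AMOTL2, a YAP-binding angiomotin, rose by 0.34 and 0.18. IGFBP3, an insulin-like growth factor binder, fell by 0.43 and AMOTL1 by 0.20, so members of 1 family went opposite ways.

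**Figure D4:**
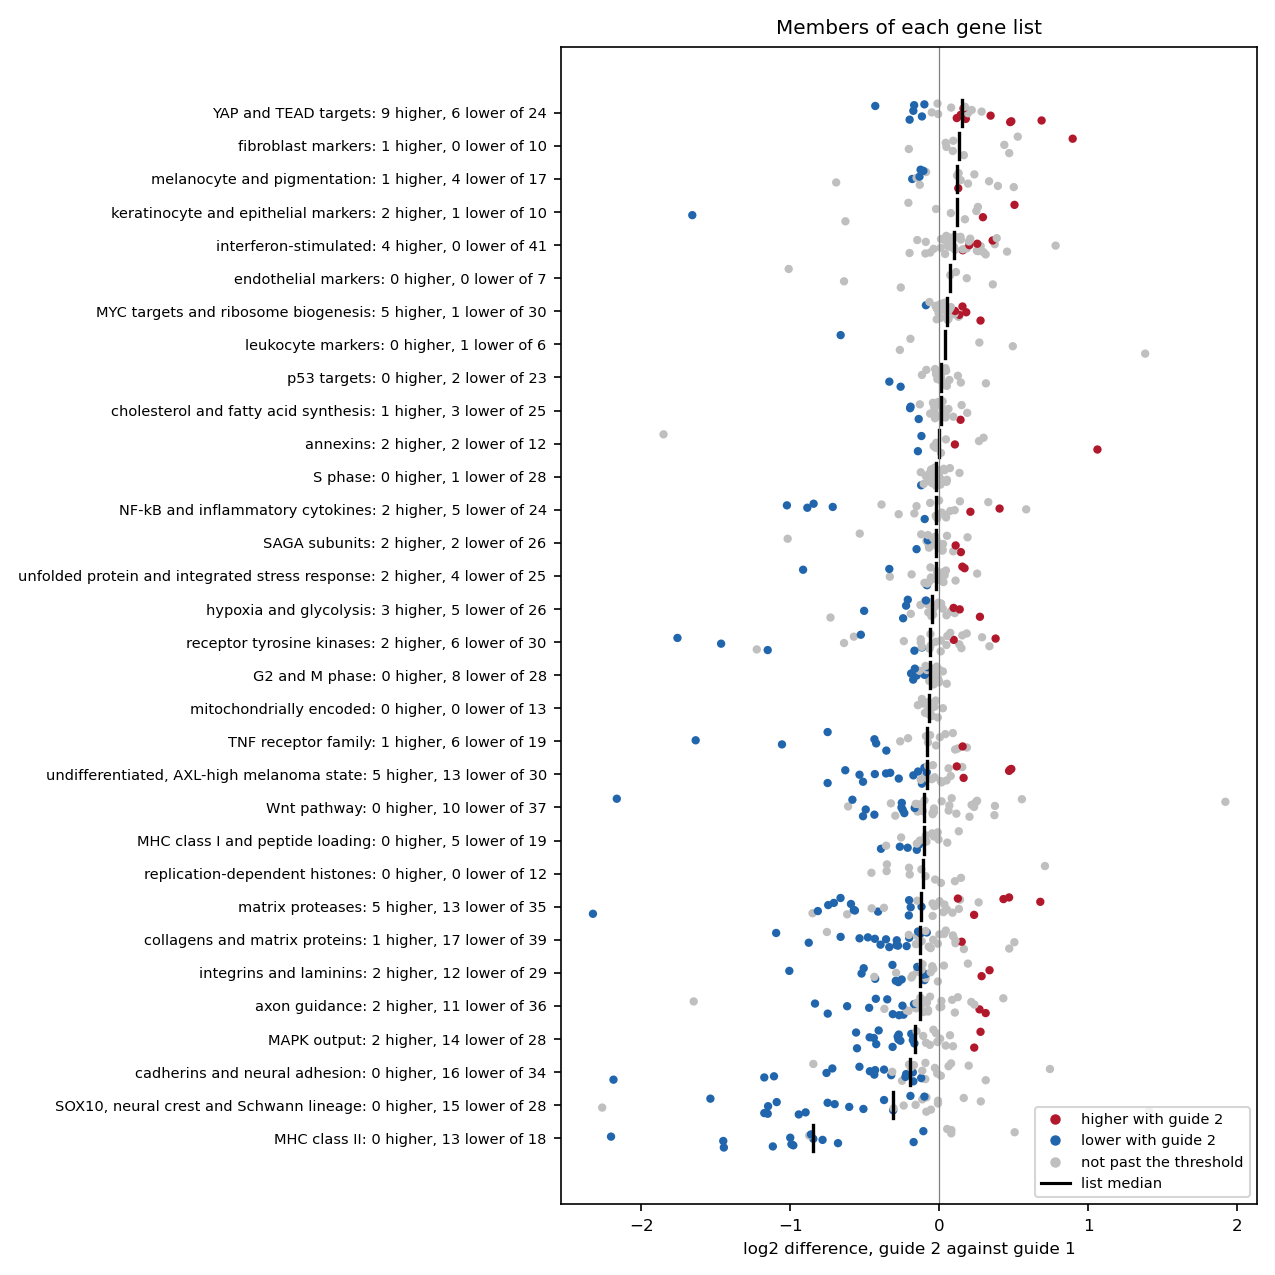
Log2 difference of guide 2 against guide 1 (horizontal axis) for the tested members of 32 gene lists, ordered by list median; colours mark members past the adjusted p of 0.05 and the black tick is the median. MHC class II lies lowest at −0.85 and YAP and TEAD targets highest at 0.15, and every other list but the SOX10 lineage (−0.31) lies between −0.20 and 0.13.

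In the Wnt pathway 10 of 37 fell and 0 rose (median −0.10). SFRP1, a secreted Wnt antagonist, had 156, 153 and 153 CPM in guide 2 cells and 239, 225 and 229 CPM in guide 1 cells, and FZD8, a Wnt receptor, fell by 0.49. In axon guidance 11 of 36 fell and 2 rose (median −0.13). NRP1, the semaphorin and VEGF co-receptor, had 104, 104 and 99.4 CPM in guide 2 cells, against 160.1, 159 and 154 CPM in guide 1 cells, and EPHA3 fell by 0.43. In the TNF receptor family 6 of 19 fell and 1 rose (median −0.08). TNFRSF19 (TROY), a neural crest receptor, had 3.59, 3.91 and 4.16 CPM in guide 2 cells and 12.1, 12.1 and 12.0 CPM in guide 1 cells, 3.11-fold lower (SE of the log2 difference 0.077, adjusted p = 2.16e-19). Inflammatory cytokines and NF-kB genes gave 5 lower and 2 higher of 24 (median −0.02), the 5 becoming 3 without guide 1 replicate 3 or guide 2 replicate 1, and the 2 becoming 4 in the 6-library fit with the replicate block. The chemokine CXCL1 fell by 1.02 on the log2 scale, while IL11 rose to 189, 193 and 197 CPM in guide 2 cells against 139, 146 and 153 CPM in guide 1 cells.

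Growth, stress and metabolic lists had medians near 0. G2 and M phase genes gave 8 lower of 28 and 0 higher (median −0.06), led by KIF20A (−0.19) and CCNB2 (−0.18). That count was 5 under library-size scaling or without guide 1 replicate 1, and 4 without guide 1 replicate 2 or guide 2 replicate 3. S phase genes gave 1 lower of 28 (median −0.02) and p53 targets 2 lower of 23, among them CDKN1A, the cell-cycle inhibitor p21 (−0.26). These were 3.57% and 8.7% of their lists, against 8.74% of all genes called in either direction and 6.09% called lower. MYC targets and ribosome biogenesis genes gave 5 higher and 1 lower of 30 (median 0.05); 9 were higher under library-size scaling and 8 without guide 2 replicate 2 or in the 6-library fit with the replicate block. Hypoxia and glycolysis genes gave 3 higher and 5 lower of 26 (median −0.05), cholesterol and fatty acid synthesis 1 higher and 3 lower of 25, and stress response genes 2 higher and 4 lower of 25. In the stress list DDIT4, an inhibitor of mTORC1, had 5.02, 4.68 and 5.58 CPM in guide 2 cells and 10.1, 8.74 and 10.0 CPM in guide 1 cells. The small counts for S phase, p53, cholesterol and stress genes each moved by 1 to 3 members when at least 1 of the 6 libraries was left out, and the 6-library fit with the replicate block gave 3 lower S phase genes and 2 higher cholesterol genes. Annexins gave 2 higher and 2 lower of 12 (1 and 1 when single libraries were left out), and 0 of 13 mitochondrially encoded genes and 0 of 12 replication-dependent histone genes passed edgeR's adjusted threshold. At an unadjusted p under 0.05 edgeR gave 0 and 5 of them, against 4054 of all 21060 genes tested. DESeq2's adjusted p called 0 of either list. SAGA subunits gave 2 higher and 2 lower of 26 (median −0.02), all by 0.15 or less; the 2 higher became 0 without guide 1 replicate 1, guide 1 replicate 2 or guide 2 replicate 3, and the 2 lower became 1 without guide 1 replicate 1, guide 1 replicate 2 or any 1 of the guide 2 libraries. The 6-library fit with the replicate block gave 4 lower. KAT2B, the acetyltransferase PCAF, had 32.1, 33.9 and 32.4 CPM in guide 2 cells, against 36.8, 36.1 and 36.4 CPM in guide 1 cells.

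Markers of other cell types were counted beside these lists. Keratinocyte and epithelial markers gave 2 higher (KRT8 by 0.29 and CLDN1 by 0.50) and 1 lower (KRT14) of 10 (4 higher in the 6-library fit with the replicate block), with a summed level of 411 to 441 CPM in guide 2 cells and 391 to 409 CPM in guide 1 cells. Fibroblast markers gave 1 higher (MFAP5) of 10, at 51.0 to 53.5 and 43.9 to 48.1 CPM summed. That is 10.0% of the list, against 8.74% of all genes called in either direction and 2.65% called higher. Leukocyte markers gave 1 lower (LYZ, lysozyme, by 0.66) of 6, at 5.76 to 6.75 CPM in guide 2 cells and 8.89 to 9.53 CPM in guide 1 cells. Endothelial markers gave 0 of 7 past edgeR's adjusted threshold, 1 at an unadjusted p under 0.05 and 0 by DESeq2, at 5.94 to 6.14 and 5.29 to 6.36 CPM. Of all 21060 genes tested, 4054 had an unadjusted edgeR p under 0.05. Their part in the results above was not tested.

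The same guides were also compared in the libraries of both lines with SOX10 overexpressed. The genes named for a change with SOX10, or for running opposite to it in control cells, were chosen with these libraries. There the lines differed at 2539 genes (12.1%), 1063 higher (5.05%) and 1476 lower (7.01%) with guide 2. SOX10 stood at 246 CPM in guide 2 cells and 291 CPM in guide 1 cells, a log2 difference of −0.24 (SE 0.037, adjusted p = 1.11e-05). Both means lay below that of control cells without added SOX10, given above. These counts do not separate introduced SOX10 from the cells' own. Of the 1282 genes lower with guide 2 and no added SOX10, 675 were lower again (52.7% of them and 45.7% of the 1476) and 23 were higher. Of the 559 higher genes, 274 were higher again (49.0% of them and 25.8% of the 1063) and 8 were lower. The class II list gave 13 lower and 1, CTSS, higher of 18 in these libraries (median −0.79). HLA-DRA averaged 175 CPM in guide 2 cells and 359 CPM in guide 1 cells, and CIITA 27.9 and 66.8 CPM. TIMP3 averaged 295 CPM in guide 2 cells and 565 CPM in guide 1 cells. ANKRD1 was at 771 and 416 CPM, and ANXA3 at 5.19 and 2.65 CPM. All 5 genes therefore differed the same way at both SOX10 levels, each with an adjusted p of 3.07e-08 or less with SOX10.

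**Figure D5:**
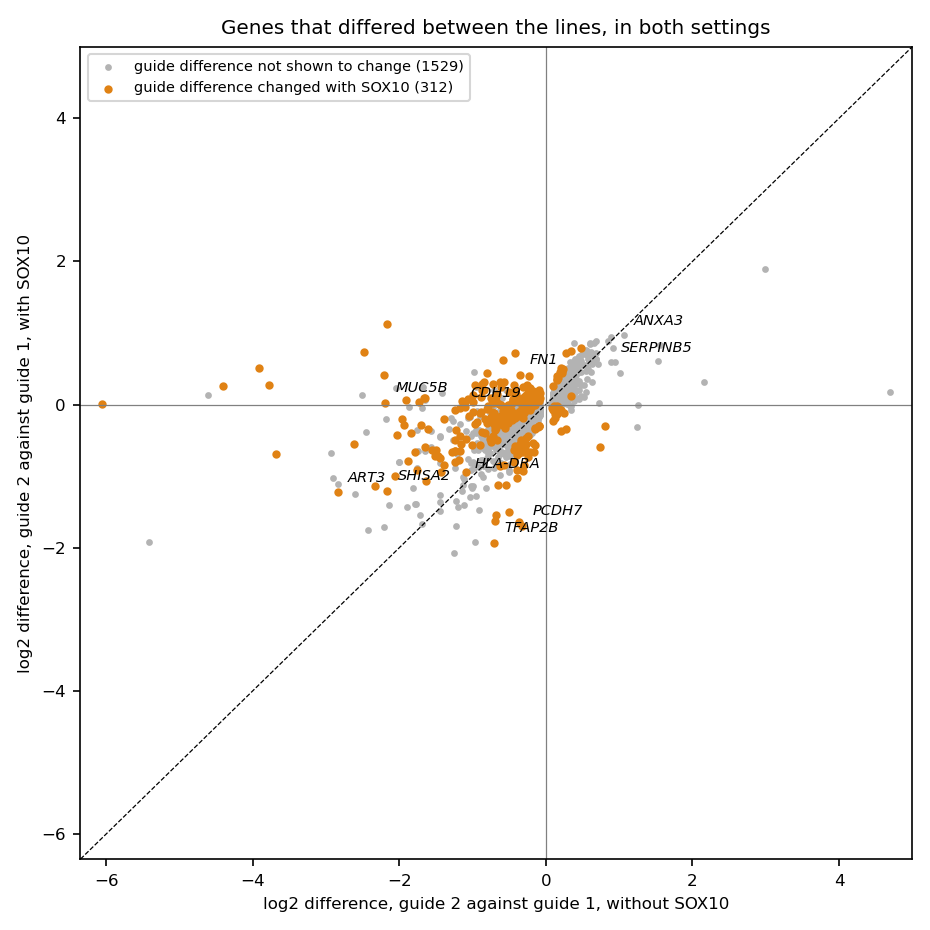
Log2 difference of guide 2 against guide 1 without SOX10 (horizontal axis) and with SOX10 overexpressed (vertical axis) for the 1841 genes that differed without SOX10, 1 point per gene; the dashed line marks equal differences. Orange marks the 312 genes whose guide difference changed with SOX10 (that test shares libraries with both axes); CDH19 and MUC5B lie near 0 on the vertical axis and HLA-DRA near the dashed line.

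For some genes the difference between the lines changed once SOX10 was added. The change passed for 528 genes (2.51%), 372 upward (1.77%) and 156 downward (0.741%) from guide 2 minus guide 1 without SOX10 to the same difference with it. The downward count was 328 without guide 2 replicate 2, and 105 without replicate 3 of guide 2 with SOX10. CDH19 averaged 118 CPM in guide 2 cells and 122 CPM in guide 1 cells with SOX10, so that its log2 difference was −0.04 there against −1.18 without SOX10 (change 1.13, adjusted p = 3.81e-16). GAS7 averaged 214 and 262 CPM with SOX10 (log2 difference −0.29; change 1.41, adjusted p = 8.13e-25). ERBB3 kept part of its difference, at 107 CPM in guide 2 cells and 158 CPM in guide 1 cells (−0.55; change 0.60, adjusted p = 3.87e-10). NGFR was at 30.2 and 28.4 CPM, a difference that did not pass there (adjusted p = 0.387), and its change did (0.84, adjusted p = 2.96e-08). FN1 turned round, being higher in guide 2 cells with SOX10 at 304 CPM against 228 CPM in guide 1 cells (0.42; change 0.78, adjusted p = 5.92e-16). For CIITA, HLA-DRA and CD74 the change was 0.18, 0.08 and 0.09 and did not pass (adjusted p = 0.19, 0.452 and 0.318), which does not show that it was 0. MITF, higher in guide 2 cells without SOX10, was lower there with it: 56.3 CPM in guide 2 cells and 64.2 CPM in guide 1 cells with SOX10 (−0.19; change −0.31, adjusted p = 7.6e-05).

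The genes were also read in control cells, where SOX10 overexpression was compared with none, a comparison that shares no library with either line. SOX10 averaged 452 CPM in control cells with SOX10 and 354 CPM in control cells, and 7245 genes changed (34.4%), 3633 higher (17.3%) and 3612 lower (17.2%). Of the 1282 genes lower with guide 2, 505 were higher (39.4%) and 451 lower (35.2%) with SOX10 in control cells. Of the 559 genes higher with guide 2, 158 were higher (28.3%) and 170 lower (30.4%). Of the 123 genes at least 2-fold lower with guide 2, 70 were higher (56.9%) and 19 lower (15.4%). Of 21060 genes tested, 434 differed the same way in both guide comparisons and the opposite way with SOX10 in control cells. Of these, 325 were lower with guide 2. The matching count that ran the same way with SOX10 in control cells was not taken, so the 434 show no tendency to run opposite. Among the lowest of the 434 genes was SHISA2, at 89.7 CPM in control cells with SOX10 and 40.6 CPM in control cells. HLA-DOA stood at 32.0 and 13.8 CPM, and MMP8, a neutrophil collagenase, at 14.1 and 9.13 CPM there and at 0.111 CPM in guide 2 cells against 0.564 CPM in guide 1 cells. SLC24A2, a potassium-dependent sodium-calcium exchanger, had 0 counts in the 3 guide 2 libraries and 16 in the guide 1 libraries, at least 5.59-fold lower when 3 counts over the group are taken as the floor. CIITA was at 192 CPM in control cells with SOX10 and 106 CPM in control cells. TIMP3, by contrast, was at 1808 and 1856 CPM (adjusted p = 0.236), and TNFRSF19 at 42.7 CPM with SOX10 and 67 CPM without, the same direction as in guide 2 cells.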

How the data were processed

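RNA was extracted and made into libraries with the KAPA Stranded mRNA-Seq kit, per the labels' protocols. The authors deposited 1 table of raw gene counts for 18 libraries; HISAT2, HTSeq and build hg38 are named in the submitters' processing notes, with no version, annotation or strand setting in the sources used here. All columns matched 1 sample title each. Symbols, biotypes and positions came from GENCODE 29 by identifier, and promoters from RefSeq (GRCh38.p14).

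Counts were fitted in R 4.3.3 with edgeR 4.0.16: filterByExpr left 21060 genes, libraries were scaled by TMM factors, and 1 model of 6 group means over all 18 libraries was fitted by the robust quasi-likelihood method, leaving 12 residual degrees of freedom (common biological coefficient of variation 4.02%). Two-sided F tests were adjusted by Benjamini-Hochberg over all genes tested, and a gene was called at an adjusted p under 0.05; SE is the absolute log2 difference over the square root of F. CPM used effective library sizes. A count of 3 was taken as the floor, which covers counting error only. The fit was also run on simulated counts with 200 genes changed 1.5- or 2-fold in guide 2 libraries. It recovered 84 of the 1.5-fold and 98 of the 2-fold genes, and called 11 unchanged genes. Those libraries were drawn independently, so the run does not cover smaller differences or libraries that deviate together. DESeq2 1.42.0, other scalings, filters, sample sets, a replicate block and leaving out each library were the alternatives, and the 6-library fit with the block was added after seeing the data.

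Same-numbered libraries of the lines deviated together (correlations of deviations across genes 0.345, 0.238 and 0.169). With SOX10 they did not (0.000876, −0.121 and −0.11). The main fit ignores this pairing, and the numbers were taken as pairs only in the alternative fits with the replicate block. The p-values and counts printed come from the fit without the replicate block, and blocked values stand beside counts that the block moved by over 1.5 times. The labels do not say what a number shares.

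Genes were named by a rule: the 10 largest called differences per direction among protein-coding genes of at least 1 CPM whose libraries do not overlap, 3 noncoding genes likewise, up to 4 members of each of 32 gene lists (821 entries, 2 unmatched) by lowest p, TADA2B, SOX10, MITF and SOX9, and the largest that changed with SOX10 or ran opposite to it in control cells. Other list members are named where they complete a list, and some genes that the rule names are not reported here. The members, lists and rules were chosen with earlier results of these data known.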

Additional observations from a re-analysis of the deposited data

Results flagged for a closer look

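For 10 genes the difference between the guide 2 and guide 1 lines itself changed when SOX10 was overexpressed, by edgeR's test of that change; they are the largest per direction among genes of at least 1 CPM in a group. Each change is the log2 difference with SOX10 minus that without it.

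Upward, LINC00479 changed by 4.06 and TRIM51, a member of the tripartite-motif family, by 2.98. Both rest on few counts in guide 2 cells without SOX10, 1 and 2 in all against 18 and 29 in guide 1 cells. The guide 1 to guide 2 ratios of those counts have 95% counting intervals of 2.98 to 785 and 3.84 to 131, and the fitted values depend on the prior count. The LINC00479 change was lost without guide 1 replicate 2 (adjusted p = 0.327), guide 2 replicate 1 (0.0855) or guide 2 replicate 3 (0.108), and that of TRIM51 without guide 1 replicate 3 (0.14), guide 2 replicate 1 (0.0946) or guide 2 replicate 3 (0.121), or by DESeq2 (0.0687). MUC5B changed by 2.23, with 6.07 CPM in guide 2 cells and 5.93 CPM in guide 1 cells once SOX10 was added. C7, a complement component, changed by 2.06, a call lost without guide 1 replicate 3 (adjusted p = 0.122) or guide 2 replicate 1 (0.103). LINC01505 changed by 1.98, and with SOX10 it stood at 9.63 CPM in guide 2 cells and 9.21 CPM in guide 1 cells.

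Downward, DCT, the melanin-synthesis enzyme dopachrome tautomerase, changed by −2.18. It had 18 counts in the guide 2 libraries and 13 in the guide 1 libraries without SOX10, and averaged 6.59 CPM in guide 2 cells and 22.8 CPM in guide 1 cells with it; the call was lost without guide 2 replicate 2 (adjusted p = 0.0975). PCDH7, a protocadherin, changed by −1.37, with 1.77 CPM in guide 2 cells and 5.74 CPM in guide 1 cells with SOX10. TGM4 changed by −1.33. VGF, a neuropeptide precursor, changed by −1.27 and averaged 22.6 CPM in guide 2 cells and 70.5 CPM in guide 1 cells with SOX10. TFAP2B, a neural crest AP-2 factor, changed by −1.23, with 3.72 CPM and 14.2 CPM there.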

How the results depend on the processing

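The count of genes lower in guide 2 cells kept within 1.5 times of 1282 under every alternative run. The count of higher genes was 559, 874 in the 6-library fit with the replicate block (652 with the block in all 18 libraries), and 336 to 572 when single libraries were left out. Of the 9 genes at least 2-fold higher, a minimum mean of 1 CPM left 1, and the 6-library fit with the block gave 14. The downward changes of the guide difference numbered 156, 328 without a filter, and 105 to 328 when single libraries were left out. Among the 173 results for single genes counted next, the replicate block changed no call. Some genes named above, such as RFX5 and CDH2, are not in that count. Of 173 results for single genes, 136 kept their direction and side of the threshold under all alternatives, 32 lost their call under at least 1 and 1 gained it. Another 4, none of them called, turned in sign without single libraries: over those fits the log2 difference ran from −0.01 to 0.20 for KRT14 with SOX10, −0.15 to 0.21 for MAP3K8 with SOX10, −0.09 to 0.09 for MUC5B with SOX10 and −0.05 to 0.08 for SOX9. The cause was not tested. Depth limits genes under 3 counts per library, 0.0359 to 0.0493 CPM.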
